A study of Mus musculus with 6 samples.

Results

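The genes described are 10 enzymes of mitochondrial fatty acid beta-oxidation, chosen by name (Acadm, Acadl, Acadvl, Hadha, Hadhb, Hadh, Acaa2, Eci1, Eci2 and Decr1) and matched by Ensembl ID among the 55401 gene IDs of a table of raw RNA-seq counts. Each name matched 1 ID, and all 10 were among the 16757 genes kept by an expression filter. The tissue was mouse heart with a myocardial infarction, in which muscle dies for lack of coronary blood flow. Per the labels, 3 libraries were of mice kept for 7 days at 16 °C (mild cold) and 3 of mice kept at 22 °C (room temperature). All 6 hearts were infarcted, so the comparison is between housing temperatures only. The labels give no genotype, strain, sex, age, surgical method or time since infarction. They number the libraries without saying whether each is a separate animal, so a p-value covers the library-to-library spread alone, which may be technical.

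Beta-oxidation is the main route by which the adult heart burns fat. Inside the mitochondrial matrix, each round of a repeating spiral oxidises a fatty acyl-CoA, adds water, oxidises it again and splits off acetyl-CoA, which feeds the tricarboxylic acid cycle, while the electrons pass to the respiratory chain through the electron transfer flavoprotein. Acyl-CoA dehydrogenases of different chain-length preference start each round, the membrane-bound trifunctional protein carries out the rest of it for long chains, and auxiliary isomerases and a reductase rearrange the double bonds of unsaturated fatty acids. Failing hearts are known for lower expression of many of these genes.

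Library totals ran from 41619023 to 65285901 counts, and mitochondrially encoded genes took 34.4% to 41.0% of the counts in mild cold and 26.2% to 31.6% at room temperature. The labels call the tissue whole heart. Heart muscle markers such as Myh6 and Tnnt2 were abundant in all 6 libraries, but the atrial markers Myl7 and Sln reached at most 18 and 6 counts in 5 of them, against 28312 and 9832 in room temperature 1. Room temperature 1 also held 8688 counts of Ucp1, the uncoupling protein of brown fat, a tissue known for high beta-oxidation, and every other library held at most 2. White adipocyte markers, summed as CPM (counts relative to library size, on edgeR's TMM scale, a trimmed mean of log ratios), measured 0.293, 0.0536 and 47.5 CPM in libraries 1 to 3 of mild cold and 595.7, 53.3 and 152.2 CPM in libraries 1 to 3 of room temperature. Results are therefore also given without room temperature 1.

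All 10 enzymes had a higher mean level in mild cold, with log2 fold changes of 0.33 (Acadm) to 0.59 (Acaa2) and a median of 0.43 against -0.02 for all genes tested. None of the 10 passed edgeR's quasi-likelihood test at an adjusted p of 0.05 over all genes, and neither did any other gene (0.0% called higher, 0 lower). At an unadjusted p under 0.05, 9 of the 10 were higher and 0 lower, against 9.11% of all genes tested higher and 10.6% lower. The 10 followed nearly 1 profile across the libraries and were chosen with earlier results of these data known. They are therefore not 10 separate observations to set against that share. For 7 of the 10, every mild cold library lay above every room temperature library, against 12.0% of all genes. DESeq2's Wald test called 2 of the 10, Eci2 (adjusted p = 0.00108) and Acaa2 (adjusted p = 0.0412), against 4.17% of the genes it tested. Over all genes, 3295 had an unadjusted edgeR p under 0.05, DESeq2 called 1414 and limma-voom 0. The difference in the enzymes depended on the scaling: 0 of 10 had an unadjusted p under 0.05 with library totals alone or relative to heart muscle markers.

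**Figure D1:**
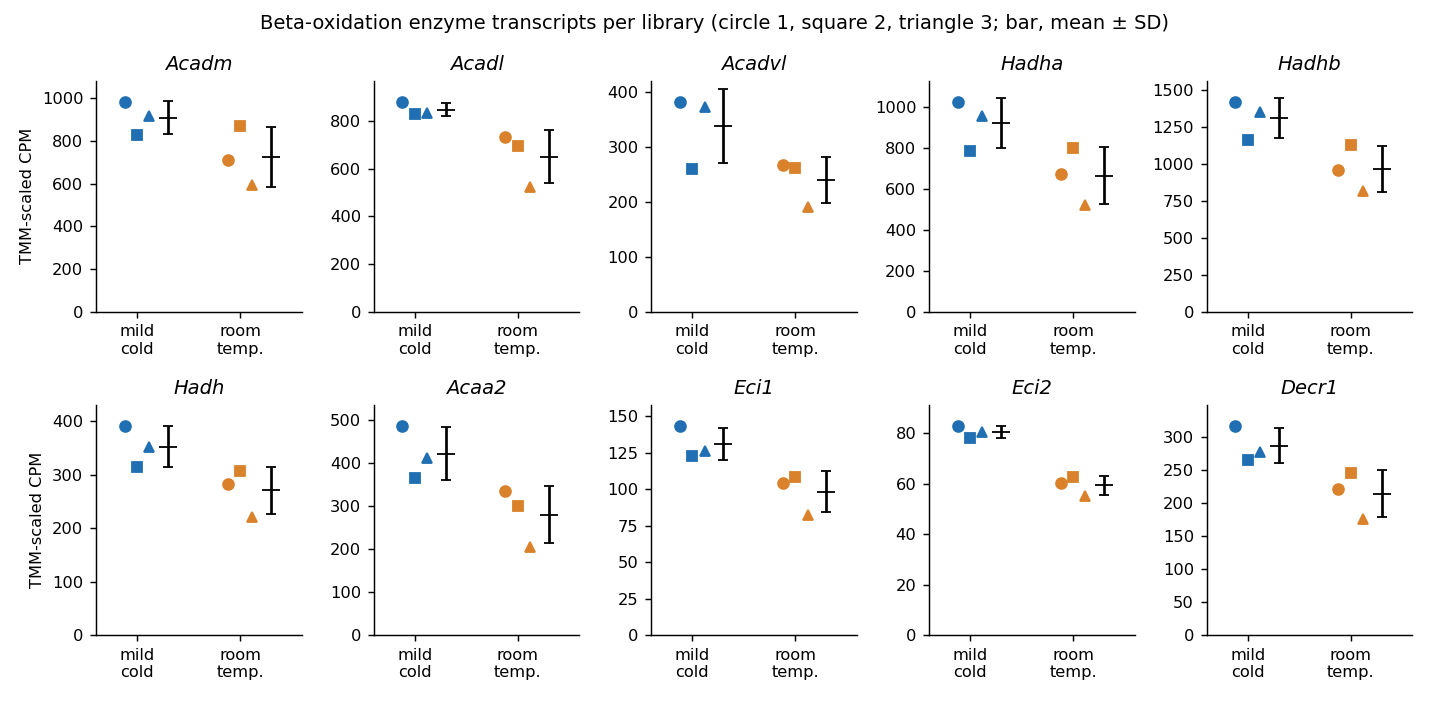
Level of each of the 10 enzymes in TMM-scaled CPM (vertical axes, each starting at 0) in the 3 mild cold libraries (blue) and the 3 room temperature libraries (orange), with the mean ± SD of each group in black. Mild cold 1 is the highest library and room temperature 3 the lowest for all 10 genes, and mild cold 2 falls below room temperature 2 for Acadm, Acadvl and Hadha.

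The acyl-CoA dehydrogenases start each round. Acadvl (ENSMUSG00000018574.14, chromosome 11), the very-long-chain enzyme of the inner membrane, measured 382, 260.8 and 372.2 CPM in libraries 1 to 3 of mild cold and 267, 261.2 and 191.2 CPM in libraries 1 to 3 of room temperature. Its groups overlapped, since mild cold 2 lay just below room temperature 1 and 2. The log2 fold change was 0.50 (SE 0.19, edgeR adjusted p = 0.221). In the GENCODE M21 annotation, 42.9% of the exon bases of Acadvl are shared with Dvl2 on the opposite strand, and no source used here gives the strand setting of the counting, so its level is uncertain.

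Acadl (ENSMUSG00000026003.5, chromosome 1), the long-chain enzyme, measured 879.6, 829.9 and 833.6 CPM in libraries 1 to 3 of mild cold and 731.7, 695 and 523 CPM in libraries 1 to 3 of room temperature. The groups did not overlap, and the mild cold libraries differed little from each other (847.7 ± 27.7 against 649.9 ± 111 CPM, mean ± SD, n = 3 per group). Its log2 fold change was 0.38 (SE 0.15, edgeR adjusted p = 0.228). Acadm (ENSMUSG00000062908.12, chromosome 3), the medium-chain enzyme and the member most often deficient in inherited human disease, had CPM values of 982.9, 829.2 and 915.4 in the mild cold libraries and of 710.1, 872 and 591.7 in the room temperature libraries. Room temperature 2 lay above mild cold 2, and Acadm was the member with the smallest change and the only one with an unadjusted p above 0.05 (log2 fold change 0.33, SE 0.17, edgeR adjusted p = 0.325).

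Hadha and Hadhb (ENSMUSG00000025745.12 and ENSMUSG00000059447.13) encode the alpha and beta subunits of the trifunctional protein, which hydrates, oxidises and cleaves long-chain intermediates. Hadha measured 1025, 784.3 and 955.9 CPM in libraries 1 to 3 of mild cold and 673.7, 802.2 and 520.5 CPM in libraries 1 to 3 of room temperature. Hadhb had CPM values of 1416, 1158 and 1347 in the mild cold libraries and of 958, 1126 and 815.9 in the room temperature libraries. Both subunits were highest in mild cold 1 and 3 and lowest in room temperature 3, and room temperature 2 overlapped mild cold for Hadha but lay just under it for Hadhb. Log2 fold changes were 0.47 for Hadha (SE 0.19, edgeR adjusted p = 0.232) and 0.43 for Hadhb (SE 0.16, edgeR adjusted p = 0.207). The ratio of Hadha to Hadhb counts, which needs no scaling, averaged 0.704 ± 0.0238 (mild cold) and 0.685 ± 0.0407 (room temperature; SD, n = 3 per group), and its log2 difference of 0.041 was smaller than the spread (2-sided exact permutation p = 0.6, where 0.1 is the smallest p this design allows).

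The genes of these subunits lie head to head on chromosome 5, and their RefSeq start sites are 273 bases apart. RefSeq promoter windows (build GRCm38.p6, 250 bases before to 50 after a start site) were found for 8 of the 10 enzymes, and the windows of Hadha and Hadhb share 228 bases, so the pair is not independent as sequence. The nuclear receptor half-site AGGTCA, searched on both strands, occurred in 2 of the 8 windows (Acadm and Acadvl), against 16.3% of all 32851 windows. The longer AAGGTCA, which contains it, occurred in 1 of the 8 (Acadm, at the same site), against 4.72%. The direct repeat of AGGTCA with 1 base between its copies (0.0396% of all windows), the ETS core CCGGAAG (8.86%) and the NRF1 palindrome (GCGC, then AT, then GCGC, 0.971%) had no match in the 8 windows. Matches describe these letters only. The 250 bases before the start sites of Hadhb, which hold the span shared with Hadha, and of Acadm and Acadvl, which hold the half-site, are shown 5′ to 3′ on the strand of the gene, with AGGTCA or its reverse complement in capitals. They lie at chr5:30155003-30155252 (plus strand), chr3:153944644-153944893 (minus strand) and chr11:70015429-70015678 (minus strand). The match begins 249 bases before the start in Acadm and 87 bases before it in Acadvl.
Hadhb: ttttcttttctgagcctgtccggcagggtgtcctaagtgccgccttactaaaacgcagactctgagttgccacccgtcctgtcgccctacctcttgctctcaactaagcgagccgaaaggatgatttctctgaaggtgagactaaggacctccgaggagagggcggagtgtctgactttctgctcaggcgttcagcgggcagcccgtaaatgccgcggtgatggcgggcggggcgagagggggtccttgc
Acadm: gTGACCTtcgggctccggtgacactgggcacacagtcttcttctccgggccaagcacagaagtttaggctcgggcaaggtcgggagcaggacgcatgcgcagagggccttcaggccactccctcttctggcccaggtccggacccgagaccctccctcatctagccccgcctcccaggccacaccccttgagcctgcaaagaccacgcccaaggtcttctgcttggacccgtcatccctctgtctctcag
Acadvl: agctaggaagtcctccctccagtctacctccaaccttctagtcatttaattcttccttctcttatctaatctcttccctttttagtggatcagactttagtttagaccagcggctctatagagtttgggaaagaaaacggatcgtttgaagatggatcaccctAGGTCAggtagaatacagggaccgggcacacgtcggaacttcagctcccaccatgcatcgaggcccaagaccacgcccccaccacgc

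Hadh and Acaa2 act on shorter chains in the matrix. Hadh (ENSMUSG00000027984.8, chromosome 3), the medium- and short-chain hydroxyacyl-CoA dehydrogenase, measured 391, 313.7 and 351.3 CPM in libraries 1 to 3 of mild cold and 283.2, 306.8 and 221.7 CPM in libraries 1 to 3 of room temperature. The groups were apart by a narrow margin between mild cold 2 and room temperature 2, with a log2 fold change of 0.38 (SE 0.15, edgeR adjusted p = 0.232). Acaa2 (ENSMUSG00000036880.10, chromosome 18), the ketoacyl-CoA thiolase that cleaves off acetyl-CoA, had CPM values of 487, 365.1 and 412.7 in the mild cold libraries and of 335.2, 299.5 and 206 in the room temperature libraries. Its groups did not overlap, and among the 10 enzymes it had the largest fold change, 0.59 on the log2 scale (SE 0.20, edgeR adjusted p = 0.182), which ran from 0.41 without room temperature 3 to 0.74 without room temperature 1. Without the deepest library of each group it was 0.29, and Eci2 was larger at 0.37.

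The auxiliary enzymes handle unsaturated fatty acids. Eci1 and Eci2 (ENSMUSG00000024132.6 on chromosome 17 and ENSMUSG00000021417.15 on chromosome 13) shift double bonds into the position the spiral can use, and Eci2 is also found in peroxisomes. Eci1 measured 143.6, 122.7 and 126.6 CPM in libraries 1 to 3 of mild cold and 104.2, 108.6 and 82.3 CPM in libraries 1 to 3 of room temperature. Eci2 had CPM values of 83.0, 78.0 and 80.5 in the mild cold libraries and of 60.5, 62.6 and 55.1 in the room temperature libraries. Both genes had groups that did not overlap, and Eci2 varied least within a group (SD 2.49 and 3.88 CPM). Their log2 fold changes were 0.41 (SE 0.13, edgeR adjusted p = 0.165) and 0.44 (SE 0.09, edgeR adjusted p = 0.0944). The change of Eci2 lay between 0.39 and 0.49 with any single library left out, with an unadjusted edgeR p of at most 0.00576 each time. The ratio of Eci2 to Eci1 counts was 0.617 ± 0.0334 in mild cold and 0.609 ± 0.0526 at room temperature (2-sided exact permutation p = 0.9).

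Decr1 (ENSMUSG00000028223.8, chromosome 4), the dienoyl-CoA reductase, had CPM values of 317.7, 266.3 and 278.1 in the mild cold libraries and of 222.4, 246.4 and 175.8 in the room temperature libraries. Its groups did not overlap (log2 fold change 0.42, SE 0.15, edgeR adjusted p = 0.194).

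The 10 enzymes followed nearly 1 profile across the libraries. In all 10, mild cold 1 was the highest library, mild cold 2 the lowest of mild cold, and room temperature 3 the lowest of all, while the highest room temperature library was room temperature 2 for 7 genes and room temperature 1 for Acadl, Acadvl and Acaa2. Averaged over the 10 on the log2(CPM + 1) scale and centred on each gene's mean, mild cold 1 to 3 stood at 0.36, 0.07 and 0.24 and room temperature 1 to 3 at -0.13, -0.04 and -0.50. The root mean square distance of a gene from this average ran from 0.031 (Hadh) to 0.136 (Acaa2), beside a median of 0.294 for the 8569 genes with a mean of at least 10 CPM. That distance is a description, since each enzyme is part of the average. The nearest other genes were Sdha, a subunit of succinate dehydrogenase (0.037), Tmem143, a mitochondrial membrane protein (0.038), Hspa9, the mitochondrial HSP70 chaperone (0.046), Pkm, pyruvate kinase (0.049), and Hibadh, an enzyme of valine breakdown (0.051), over the 6 libraries. Their log2 fold changes were between 0.38 and 0.45, which follows from picking them by profile and is no separate result.

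Of the summed counts of the 10 genes, Hadhb took 23.3 ± 0.344% in mild cold and 23.2 ± 1.07% at room temperature, and Acadm 16.3 ± 0.257% and 17.4 ± 0.959% (SD, n = 3 per group). Hadha took 16.4 ± 0.667% and 15.9 ± 0.775%, and Acadl 15.2 ± 1.18% and 15.6 ± 1.16%. Acaa2 took 7.51 ± 0.399% and 6.69 ± 0.891%, Hadh 6.29 ± 0.107% and 6.50 ± 0.0705%, and Acadvl 6.01 ± 0.709% and 5.75 ± 0.351%. Decr1 took 5.14 ± 0.214% and 5.16 ± 0.0391%, Eci1 2.34 ± 0.109% and 2.37 ± 0.0836%, and Eci2 1.45 ± 0.102% and 1.44 ± 0.165%. The groups overlapped for 9 of the 10 shares, and no test was made of them. The ratio of Acadvl to Acadm counts, the chain-length contrast among the dehydrogenases, averaged 0.37 ± 0.0488 (mild cold) and 0.333 ± 0.0392 (room temperature), a log2 difference of 0.15 that did not exceed the spread (2-sided exact permutation p = 0.3). Adjusted by the Benjamini-Hochberg method over the 3 ratios compared, each p was 0.9.

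Levels between genes were compared per kilobase of the longest annotated coding transcript. At room temperature, Hadhb stood highest at 472 ± 75.8 CPM per kilobase, followed by Acadm at 354 ± 68.7 and Acadl at 339.2 ± 58.2. The range of Acadm overlapped those of both others, although Hadhb lay above Acadm within every library. Every room temperature value of Hadhb lay above those of Acadl. Every room temperature value of Acadl lay above those of Acaa2 (184.8 ± 44.0). The ranges of Acaa2, Hadha (165.7 ± 35.1) and Hadh (151.2 ± 24.5) overlapped. So did those of Acadvl (110.6 ± 19.5), Eci1 (86.5 ± 12.4) and Decr1 (72.6 ± 12.1) from one to the next. Within every library, however, Hadha lay above Hadh, Acadvl above Eci1 and Eci1 above Decr1. Acaa2 lay below Hadha in room temperature 2 (197.5 against 199.7). Eci2 was lowest at 34.0 ± 2.22, under every library of Decr1. The order was the same in mild cold. With the merged exons of all annotated transcripts as the length, Acadl came first, Hadhb was at rank 4 and Decr1 came above Eci1, while Eci2 stayed last. The order above Eci2 therefore depends on the transcript model.

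The 12 cardiomyocyte markers, among them the sarcomere genes Myh6, Tnnt2 and Myl2, had a median log2 fold change of 0.50 (range 0.12 to 0.74, 12 of 12 positive, 5 at an unadjusted edgeR p under 0.05, against 9.11% of all genes higher, and 0 after adjustment), beside 0.43 for the enzymes. Without room temperature 1 these medians were 0.32 and 0.45. Of the 12, 2 were at that p without room temperature 1, room temperature 3 or mild cold 3, 9 without room temperature 2 and 3 without mild cold 1. The summed markers measured 60828, 49716 and 56665 CPM in libraries 1 to 3 of mild cold and 36404, 50117 and 34967 CPM in libraries 1 to 3 of room temperature, so mild cold 2 lay below room temperature 2. Of 8 fibroblast markers, 7 were lower at an unadjusted p under 0.05 (median -0.64, with 10.6% of all genes lower), 4 without room temperature 2 and 2 without mild cold 1 or room temperature 3, with sums of 2881 to 4332 CPM in mild cold against 4971 to 6947 CPM at room temperature. In bulk tissue, fewer cells of a type and less RNA per cell cannot be told apart.

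With the muscle markers as library size and all 6 libraries, no enzyme had an unadjusted edgeR p under 0.05. Single enzymes were not fitted on that scale without room temperature 1. Per 100 counts of the 12 markers, the 10 enzymes together held 10.04, 10.07 and 10.01 counts in mild cold 1 to 3 and 11.94, 9.54 and 9.68 counts in room temperature 1 to 3. The 3 mild cold libraries were almost equal (SD 0.0305), although their CPM values differed. Room temperature 1, the library with atrial and brown fat transcripts, stood above all others, and room temperature 2 and 3 stood below mild cold (mean 9.61 against 10.04). The log2 difference, mild cold minus room temperature, was -0.0406 with all libraries and 0.0639 without room temperature 1, so its direction rests on that library. With the marker sum as library size in the edgeR fit, log2 fold changes of the 10 enzymes ran from -0.14 (Acadm) to 0.10 (Acaa2), with a median of -0.05, 0 of 10 at an unadjusted p under 0.05 (smallest p 0.372) and 7 of 10 negative. That scaling moved the median of all genes to -0.50. With library totals alone, which include the mitochondrially encoded counts, the enzymes had a median of 0.18 beside -0.27 for all genes, with all 10 positive and 0 of 10 at an unadjusted p under 0.05.

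**Figure D2:**
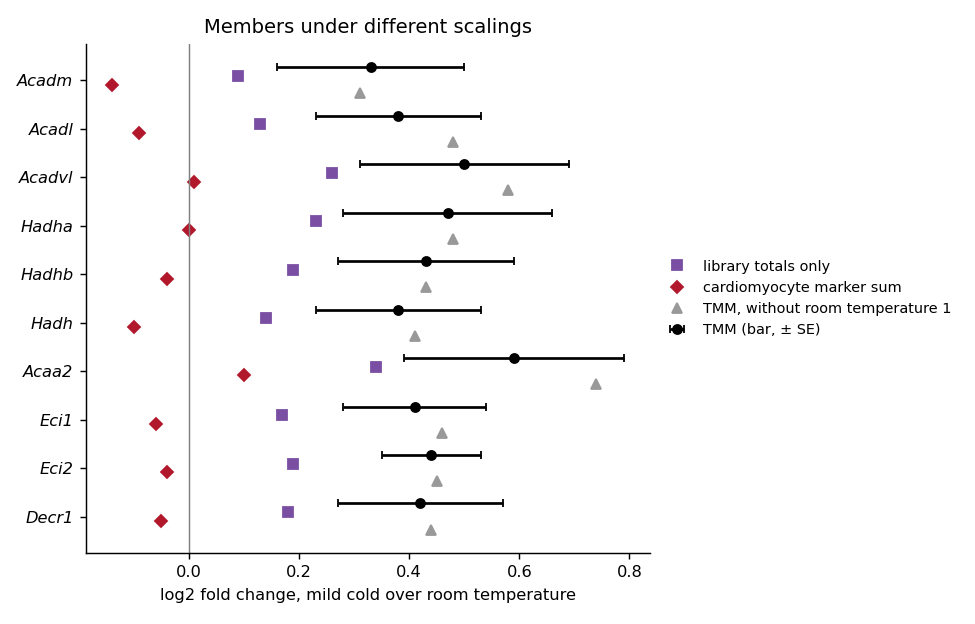
Log2 fold change of each enzyme, mild cold over room temperature (horizontal axis), with TMM scaling (black, ± SE), library totals only (purple), the summed cardiomyocyte markers as library size (red) and TMM scaling without room temperature 1 (grey). Values lie between 0.33 and 0.59 with TMM scaling and between -0.14 and 0.10 with the marker sum.

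**Figure D3:**
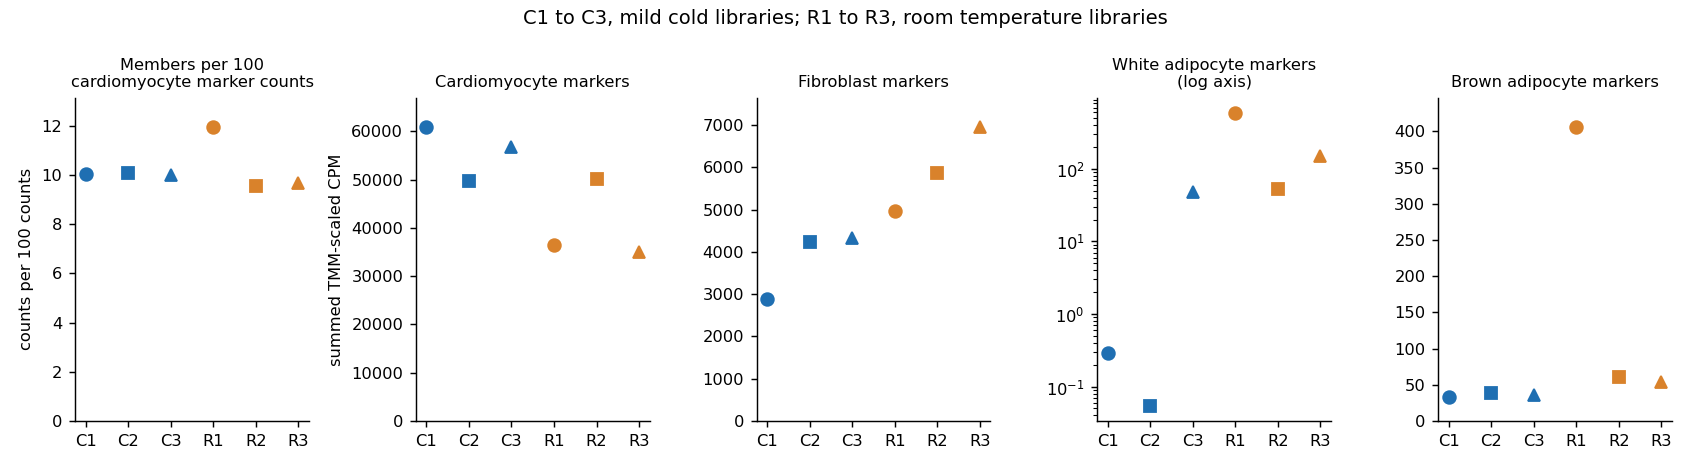
Counts of the 10 enzymes per 100 cardiomyocyte marker counts (left) and summed TMM-scaled CPM of 4 marker lists, by library (C, mild cold; R, room temperature). The enzymes hold 10.01 to 10.07 counts per 100 in mild cold, and room temperature 1 stands out at 11.94 and in the brown and white adipocyte panels, where the white adipocyte axis is logarithmic.

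Markers of other tissues differed between libraries too. Hepatocyte markers summed to 225.9, 8.23 and 378.3 CPM in mild cold 1 to 3. In room temperature 1 to 3 they summed to 523, 94.3 and 203.4 CPM, of which Cyp2e1 made up 511.8, 59.2 and 201.9. Cyp2e1 had a log2 fold change of -2.76, while the other 7 markers of this list were positive. Alb, the defining hepatocyte marker, had 7248, 128 and 7462 counts in mild cold 1 to 3 and at most 879 at room temperature. Skeletal muscle markers summed to 103.6 CPM in room temperature 3 and at most 7.64 CPM elsewhere. White adipocyte markers were lower in mild cold at an unadjusted p under 0.05 for 5 of 6, against 10.6% of all genes. So were brown adipocyte markers for 1 of 3 tested, atrial markers for 2 of 2 tested, skeletal muscle markers for 5 of 6 tested and macrophage markers for 1 of 8. Against 9.11% of all genes, hepatocyte markers were higher for 5 of 8, endothelial markers for 2 of 8 and erythroid markers for 1 of 6. With 1 library left out, the white adipocyte count ran from 1 (without room temperature 1 or mild cold 1) to 6. That of skeletal muscle ran from 2 (without room temperature 3) to 6, and that of hepatocytes from 2 (without mild cold 1 or 3) to 7. The brown adipocyte marker at that p with all libraries was Dio2, at -1.35 without room temperature 1. Without that library, 2 of the 3 brown adipocyte markers were higher and 1 lower (median 0.34). The atrial count was 1 without room temperature 1 or any 1 mild cold library. That of macrophages was 0 without room temperature 3 or any 1 mild cold library, and that of endothelial markers ran from 0 to 3. The part of these tissues in the enzyme levels was not tested. Without room temperature 1, the median log2 fold change of the 10 enzymes was 0.45, 6 of 10 had an unadjusted p under 0.05 and 7 did not overlap. Without mild cold 1 or room temperature 3, the libraries at the ends of the range, the medians were 0.37 and 0.31, and 1 and 3 of the 10 had an unadjusted p under 0.05. That count was also 3 without mild cold 3. Without both mild cold 1 and room temperature 3, each the deepest library of its group, the median was 0.23 and the count 1.

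Of 7 other enzymes of the mitochondrial spiral, all tested, 2 were higher at an unadjusted p under 0.05, against 9.11% of all genes. After adjustment over all genes 0 passed (median log2 fold change 0.26). The count at the unadjusted p was 0 without mild cold 1, mild cold 3 or room temperature 3, 1 without room temperature 1 and 4 without mild cold 2. Acads, the short-chain acyl-CoA dehydrogenase, had means of 105.5 ± 14.7 (mild cold) and 83.9 ± 13.2 CPM (room temperature) (SD, n = 3; log2 fold change 0.33, edgeR adjusted p = 0.286). Echs1, the short-chain enoyl-CoA hydratase, had 230.7 ± 17.3 and 189.9 ± 26.0 CPM (0.28, adjusted p = 0.286 by edgeR). Acad11 (0.45) and Acad9 (0.22) were the 2 with an unadjusted p under 0.05, Acad9 being also known as an assembly factor of respiratory complex I. Acad12 (0.26), Hsd17b10 (0.12) and Acad10 (-0.22) did not reach that p, and Acad10 was at 0.18 without room temperature 1. Hsd17b10 encodes the hydroxyacyl-CoA dehydrogenase of branched short chains.

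The electron acceptors of the dehydrogenases were higher in mild cold for 3 of 3 genes (median 0.51). Etfa, the alpha subunit of the electron transfer flavoprotein, measured 540.9, 484.1 and 487.4 CPM in libraries 1 to 3 of mild cold and 365.9, 399.1 and 293.5 CPM in libraries 1 to 3 of room temperature. Etfdh, which hands the electrons on to ubiquinone, stood at 563.6, 457.8 and 524.2 CPM and at 354.2, 429.7 and 303.2 CPM. In both genes every mild cold library lay above every room temperature library, with a log2 fold change of 0.51 each (edgeR adjusted p = 0.136 and 0.16). Etfb, the beta subunit, was at 0.65 (edgeR adjusted p = 0.152) but at 12.9 ± 1.73 and 8.25 ± 1.93 CPM, and 58.2% of its exon bases are shared with other annotated genes, so its level is uncertain. All 3 had an unadjusted p under 0.05, against 9.11% of all genes higher, and also with any 1 library left out. DESeq2 called all 3, against 4.17% of the genes it tested. Without the deepest library of each group, 0 of the 3 had an unadjusted edgeR p under 0.05. Whether their change differs from that of the 10 enzymes was not tested, and with the cardiomyocyte marker sum as library size their median was 0.04.

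**Figure D4:**
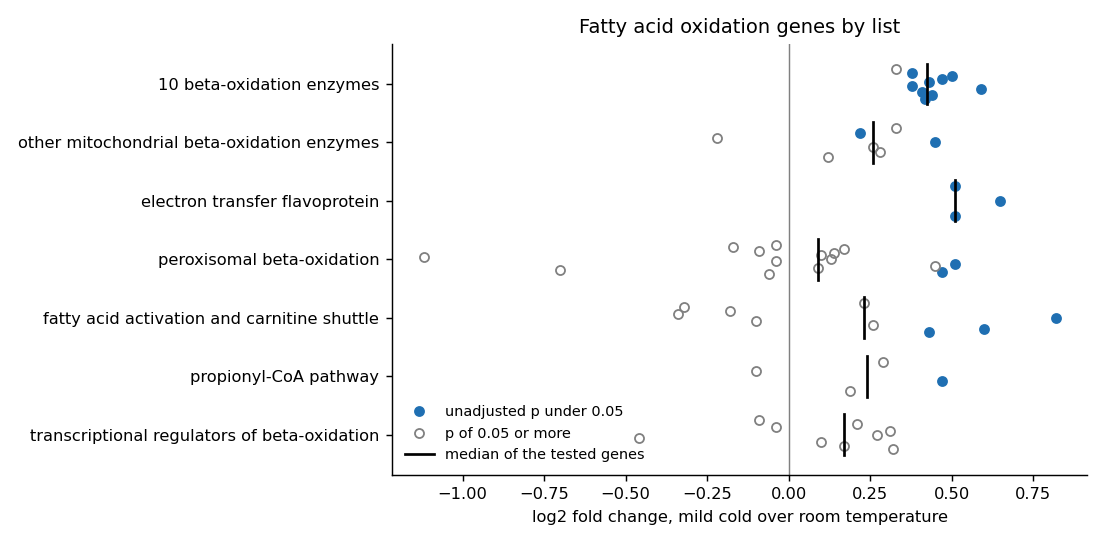
Log2 fold change (horizontal axis, TMM scaling) of each tested gene of 7 lists of fatty acid oxidation, filled where the unadjusted edgeR p was under 0.05, with the median of each list as a black line. The 10 enzymes lie between 0.33 and 0.59, and peroxisomal genes between -1.12 and 0.51. The lowest of these, Acaa1b, had only 0 to 6.87 CPM (SE 1.32) and was at 0.92 without room temperature 1.

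Upstream of the spiral, 3 of 9 genes of fatty acid activation and the carnitine shuttle were higher at an unadjusted p under 0.05 and 0 lower (median 0.23), against 9.11% and 10.6% of all genes. Of the 9, 5 had a positive log2 fold change and 4 a negative one (lowest -0.34), and 1 was lower at that p without room temperature 2. The median became 0.39 when room temperature 1 was left out, 0.12 for room temperature 2, 0.03 for room temperature 3 and 0.13 for mild cold 1, and the count higher was 1 without mild cold 1 or room temperature 3 and 2 without mild cold 3. Cpt2, the carnitine palmitoyltransferase of the inner membrane, stood at 140.3 ± 16.0 and 92.9 ± 20.5 CPM (log2 fold change 0.60, edgeR adjusted p = 0.151), Slc25a20, the carnitine-acylcarnitine carrier, at 146.3 ± 14.5 and 108.8 ± 20.8 CPM (0.43), and Acsl6, an acyl-CoA synthetase, at 12.5 ± 2.01 and 7.13 ± 2.73 CPM (0.82). Acsl1, another acyl-CoA synthetase and the most abundant of the 9, overlapped between groups at 696.6 ± 142 and 593.5 ± 190 CPM (0.23, edgeR adjusted p = 0.664). Cpt1b, the muscle form of the outer-membrane transferase, was picked after its values were seen, as was Acsl1. Cpt1b had only 2.35 to 3.70 CPM, and 81.4% of its exon bases are shared with the annotated gene Gm44502, so its level cannot be read from these counts.

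Peroxisomal beta-oxidation, which shortens very long chains, gave a median of 0.09 over 15 tested genes of 16, with 2 higher at an unadjusted p under 0.05 and 0 lower, near the 9.11% of all genes that were higher. The 2 were Amacr, the racemase of branched-chain acyl-CoAs (0.51, edgeR adjusted p = 0.112), and Abcd3, a peroxisomal acyl-CoA transporter (0.47, edgeR adjusted p = 0.18), and Acox3, an acyl-CoA oxidase, was at 0.17. Over the same 15 genes the median became 0.26 (4 higher) when room temperature 1 was left out, 0.05 for room temperature 2, -0.01 for room temperature 3 and 0.01 for mild cold 1, and 1 was higher without mild cold 1, mild cold 3 or room temperature 3. The propionyl-CoA pathway takes up the end of odd-numbered chains (median 0.24, and 0.12 without room temperature 3). Of its 4 genes, 1 was higher at that p, against 9.11% of all genes, and 2 were higher without room temperature 1. With all libraries it was Mcee, the methylmalonyl-CoA epimerase, with CPM of 43.1, 47.5 and 44.9 in the mild cold libraries and of 33.2, 34.6 and 30.4 in the others (0.47, SE 0.09, edgeR adjusted p = 0.0944). Pcca was at 0.29, Mmut at 0.19 and Pccb at -0.10, and Pccb was at 0.19 without room temperature 1.

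Of 9 transcriptional regulators of these genes, 0 passed edgeR at an unadjusted p under 0.05 in either direction (0 by DESeq2, median 0.17). Their median became 0.09 when mild cold 1 was left out, 0.35 for mild cold 2 and -0.02 for room temperature 3. At that p, 2 were higher without mild cold 2 or room temperature 2, and 1 was lower without room temperature 3. Esrra, an estrogen-related receptor that drives mitochondrial genes, had means of 77.3 ± 15.7 (mild cold) and 62.4 ± 5.20 CPM (room temperature; 0.31, edgeR adjusted p = 0.311), and Ppard, a fatty acid sensing receptor, was at 0.21. Ppargc1a, a coactivator of both, was at -0.46, and it stood at 202.9 CPM in room temperature 1, the library with Ucp1. Without that library its value was -0.10. With the cardiomyocyte marker sum as library size, the medians of the other mitochondrial enzymes, the activation and shuttle genes, the propionyl-CoA pathway, the peroxisomal genes and the regulators were -0.23, -0.27, -0.25, -0.40 and -0.34, beside -0.50 for all genes.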

How the data were processed

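The authors deposited raw counts per gene for 6 libraries of total RNA extracted with TRIzol and enriched for mRNA, per the labels. The submitters' processing notes name GRCm39 and featureCounts 2.0.3; no source used here gives the strand setting or how read pairs were counted. Of counts from 1 to 10, 71.9% to 78.3% were even. Of 55401 gene IDs, 55141 matched a symbol. GENCODE M21 (GRCm38) gave only names, lengths and exon overlap.

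The 10 enzymes and all gene lists were chosen with earlier results of these data known. Mild cold was tested against room temperature, 3 libraries each, with edgeR 4.0.16 in R 4.3.3 (TMM scaling, filterByExpr, quasi-likelihood test, Benjamini-Hochberg adjustment over 16757 genes, threshold 0.05), after testing on simulated data. Other fits used DESeq2 1.42.0 and limma-voom 3.58.1, other scalings and filters, and left out each library. CPM are TMM-scaled. Exact permutation tests compared 3 count ratios. Besides the 10 enzymes, the 3 genes with the smallest p per list were named (all members of the lists of other mitochondrial enzymes and electron acceptors), and the 5 genes nearest in profile. Acsl1, Cpt1b and Pccb were added after their values were seen. Libraries held 41619023 to 65285901 counts. No 2 libraries held identical counts.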

Additional observations from a re-analysis of the deposited data

How the results depend on the processing

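With the cardiomyocyte marker sum as library size, the median of the 10 enzymes reversed to -0.05, beside -0.50 for all genes. On that scale 0 of 10 had an unadjusted p under 0.05, 0 of 10 lay without overlap, and 911 of all genes were called. Every gene listed next had an unadjusted edgeR p of at least 0.0857 on that scale, and the last 5 were picked by profile. Genes picked after their values were seen are not listed here. Single genes that reversed there were Acadm (-0.14), Acadl (-0.09), Hadhb (-0.04), Hadh (-0.10), Eci1 (-0.06), Eci2 (-0.04), Decr1 (-0.05), Acads (-0.15), Acad9 (-0.26), Acad11 (-0.03), Acad12 (-0.23), Echs1 (-0.20), Hsd17b10 (-0.35), Abcd3 (-0.03), Acox3 (-0.33), Slc25a20 (-0.06), Mcee (-0.01), Pcca (-0.19), Mmut (-0.30), Esrra (-0.19), Ppard (-0.28), Sdha (-0.06), Tmem143 (-0.02), Hspa9 (-0.10), Pkm (-0.05) and Hibadh (-0.05). With library totals only, the median was 0.18, 0 of 10 had an unadjusted p under 0.05, 0 of 10 did not overlap and 356 genes were called, and Acad9 (-0.03), Hsd17b10 (-0.13), Acox3 (-0.09), Mmut (-0.06) and Ppard (-0.04) reversed. DESeq2 called 2 of the 10 and 1414 genes, and 184 genes were called with no expression filter. Leaving out 1 library gave 0 to 2 genes called, 1 to 10 of the enzymes at an unadjusted p under 0.05, 7 to 10 without overlap and medians of 0.31 to 0.52; Acad10 ran from -0.40 to 0.18, reversed without room temperature 1. Leaving out 1 library moved the log2 ratio difference of Hadha to Hadhb from -0.00908 to 0.0707 and that of Eci2 to Eci1 from -0.0169 to 0.0915, with negative values of -0.00169, -0.00182 and -0.011 in between. The deepest library of each group, mild cold 1 and room temperature 3, was also the highest and the lowest for all 10 enzymes. Without both, the median was 0.23, 1 of the 10 had an unadjusted p under 0.05 and the Hadha to Hadhb difference was -0.0298. With the replicate number as a block, 5 of the 10 had an unadjusted p under 0.05 and 1 gene was called. Same-numbered libraries correlated at 0.12, -0.13 and -0.01, and differently numbered ones at -0.44 to 0.40. With 3 libraries per group, such values cannot decide whether the numbers pair the libraries. Ranking by merged exon length, chosen after seeing the data, moved 8 of 10 room temperature ranks. The causes of these changes were not tested.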
